A study of Mus musculus with 19 samples.

Results

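The 9 vehicle-treated libraries of the series fall into 2 sets by the number each carries in its file. Libraries 41, 51, 57 and 59 form the high-number vehicle set (4 libraries, 2 WT and 2 APP), and libraries 3, 7, 9, 11 and 21 form the low-number vehicle set (5 libraries, 2 WT and 3 APP), out of 19 libraries in all. The members were chosen by their measured values, since Cxcl2, Il1b and Cxcl1, the transcripts of a neutrophil chemokine, of interleukin-1 beta and of a second neutrophil chemokine, had been seen at higher levels in the high-number set. Every gene of this contrast therefore counts as used in choosing the sets, and the vehicle values are given as a description with no test. The 10 LPS libraries did not enter the choice, and the same division by number, 42, 52, 58 and 60 against 4, 5, 8, 10, 12 and 22, was tested in them.

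The cells were microglia, the resident macrophages of the brain. They were cortical and came from 10 to 11 months old mice of the C57BL/6 strain. WT is the control genotype, and APP animals were of the hAPPJ20 line, in which a PDGF promoter drives human amyloid precursor protein with the Swedish and Indiana mutations. Cells of all groups spent 4 weeks in culture in DMEM/F12 with 10% serum and 5 ng/mL of M-CSF, which keeps macrophages alive in culture. Vehicle cultures received medium for 6 h and LPS cultures received 100 ng/mL of lipopolysaccharide for 6 h, and both then spent 16 h in fresh medium. QuantSeq libraries, which read the 3′ end of polyadenylated transcripts, were counted per gene, and levels are in CPM, a library's counts put on a common total after scaling by the trimmed mean of M values. The high-number and low-number sets thus share genotypes, agent and times. The labels do not say what the numbers record, nor do they tie a library to an animal or a culture, so the spread between libraries may be partly technical.

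Lipopolysaccharide binds CD14 and the TLR4 and MD-2 receptor, and the adaptor MyD88 then leads to NF-kB, which switches on cytokine and chemokine genes together with genes that shut the response down. A separate arm of the receptor leads through IRF3 to interferon beta, and secreted interferon acts back on the cells to switch on interferon-stimulated genes. In microglia these programmes appear alongside lower levels of the genes typical of undisturbed cells, such as P2ry12 and Cx3cr1.

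The promoters of 5 genes are shown, because they carry the sequence of the NF-kB or of the interferon programme in front of genes described below. They are RefSeq sequences on GRCm38.p6, 250 bases before to 50 bases after the transcription start, written 5′ to 3′ on the gene's strand. Capitals mark an NF-kB motif (GGGA, any 4 bases, CC) in the 3 chemokine genes and an interferon response motif (GAAA, any 2 bases, GAAA), or its reverse complement, in the interferon-stimulated genes; both strands were searched, and matches that overlap are merged into 1 run of capitals. Cxcl2 lies at chr5:90903649-90903948 (plus strand), Cxcl1 at chr5:90890995-90891294 (plus), Cxcl3 at chr5:90785851-90786150 (plus), Isg15 at chr4:156200769-156201068 (minus) and Ifit1 at chr19:34640639-34640938 (plus).
Cxcl2: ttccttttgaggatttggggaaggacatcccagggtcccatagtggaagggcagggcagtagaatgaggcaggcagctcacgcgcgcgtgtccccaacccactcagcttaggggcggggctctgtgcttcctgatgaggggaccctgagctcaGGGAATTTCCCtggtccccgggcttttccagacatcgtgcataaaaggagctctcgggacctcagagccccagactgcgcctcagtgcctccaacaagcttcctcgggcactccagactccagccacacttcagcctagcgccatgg
Cxcl1: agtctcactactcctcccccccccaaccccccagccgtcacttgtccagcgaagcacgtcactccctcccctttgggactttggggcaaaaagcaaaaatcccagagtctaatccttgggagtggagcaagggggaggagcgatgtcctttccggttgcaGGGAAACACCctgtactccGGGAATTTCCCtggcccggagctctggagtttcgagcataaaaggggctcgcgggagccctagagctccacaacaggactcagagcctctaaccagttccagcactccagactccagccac
Cxcl3: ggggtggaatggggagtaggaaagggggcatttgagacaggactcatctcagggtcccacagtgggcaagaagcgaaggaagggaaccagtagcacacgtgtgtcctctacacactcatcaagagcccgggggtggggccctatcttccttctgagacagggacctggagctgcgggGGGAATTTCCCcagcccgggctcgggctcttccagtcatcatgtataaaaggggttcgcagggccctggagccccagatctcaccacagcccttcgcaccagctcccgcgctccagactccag
Isg15: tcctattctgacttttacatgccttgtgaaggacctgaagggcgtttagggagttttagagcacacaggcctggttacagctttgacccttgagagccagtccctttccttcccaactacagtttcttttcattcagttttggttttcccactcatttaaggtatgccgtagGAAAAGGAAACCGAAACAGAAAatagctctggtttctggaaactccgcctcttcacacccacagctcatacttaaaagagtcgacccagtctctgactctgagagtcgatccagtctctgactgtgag
Ifit1: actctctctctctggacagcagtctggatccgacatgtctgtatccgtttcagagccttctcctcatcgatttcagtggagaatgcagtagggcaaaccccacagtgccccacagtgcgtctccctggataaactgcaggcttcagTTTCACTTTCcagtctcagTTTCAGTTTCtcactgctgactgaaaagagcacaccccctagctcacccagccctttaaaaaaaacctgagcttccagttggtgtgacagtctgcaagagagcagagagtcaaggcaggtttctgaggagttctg

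The 3 chemokine promoters hold the same run of capitals, GGGAATTTCCC, with a further match upstream in Cxcl1, and each gene encodes a ligand of the receptor CXCR2. The windows of Il1b and Il12b hold no match to the NF-kB letters, which says nothing about the factor itself. Isg15 has 3 overlapping matches in 1 run and Ifit1 has 2 on the opposite strand.

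Cxcl2 stood at 166, 363, 2167 and 1381 CPM in high-number vehicle libraries 41, 51, 57 and 59, against 21.9, 98.6, 28.2, 6.59 and 39.3 CPM in low-number vehicle libraries 3, 7, 9, 11 and 21. The 2 sets did not overlap, but the high-number libraries were themselves far apart, with 57 and 59 well above 41 and 51. Il1b, whose product is cut by caspase-1 before release, stood at 61.5, 52.4, 70.9 and 131 CPM in the high-number set, against 15.01, 25.99, 14.1, 6.39 and 10.7 CPM in the low-number set. Here too the sets were separate, and only library 59 stood apart from the other high-number libraries.

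Cxcl1 did not separate the sets. It stood at 123, 207, 969 and 796 CPM in the high-number libraries, against 159, 89.4, 15.1, 14.95 and 30.8 CPM in the low-number ones, so library 3 lay above library 41. Cxcl2 and Il1b thus followed the label of quiet and inflamed cultures in every vehicle library, and Cxcl1 only in part. The sets were chosen on these genes, so their separation is not evidence for the label. On the scale of mean log2(CPM + 1), the high-number set minus the low-number set was 4.50 for Cxcl2, 2.41 for Il1b and 3.19 for Cxcl1. Without libraries 57 and 59 these differences were 3.09, 2.03 and 1.96.

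Libraries 41 and 21 stand on either side of the number threshold, and both are WT libraries from male cells. Library 41 had 166 CPM of Cxcl2, 61.5 CPM of Il1b and 123 CPM of Cxcl1, while library 21 had 39.3, 10.7 and 30.8 CPM of the same genes. In WT libraries alone the difference was 4.13 for Cxcl2, 2.34 for Il1b and 3.94 for Cxcl1, and in APP libraries alone it was 4.78, 2.51 and 2.73.

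**Figure D1:**
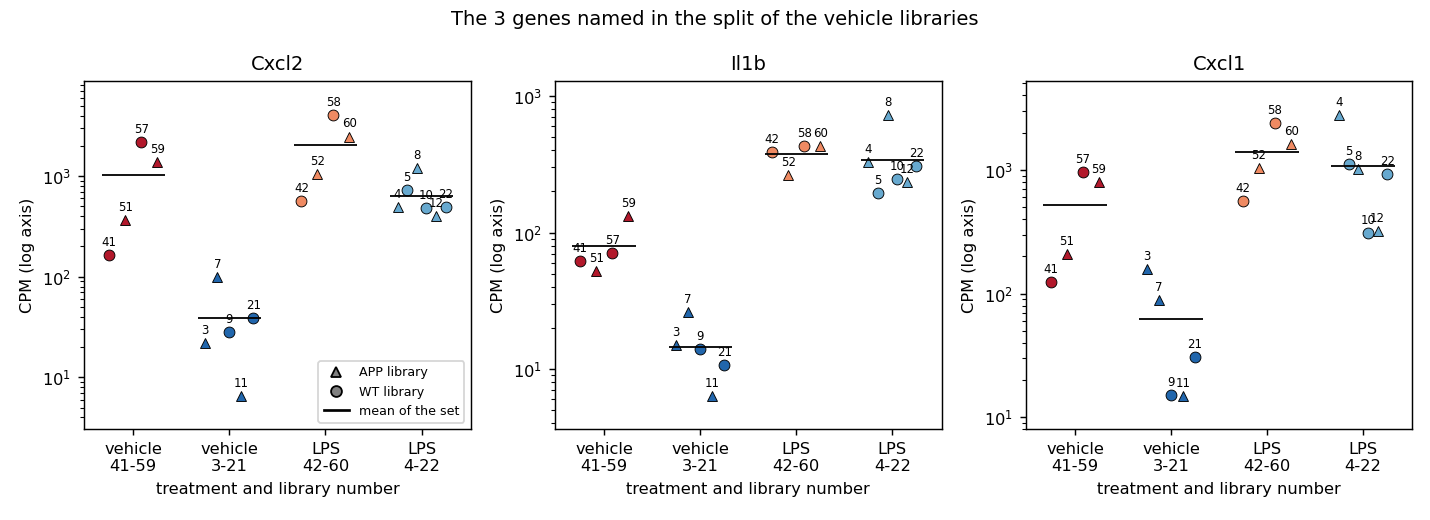
Level of Cxcl2, Il1b and Cxcl1 in each library (CPM, log axis), by treatment and library number. Each point is 1 library with its number, circles are WT and triangles APP, and horizontal lines are the means of a set. High-number vehicle libraries lie above all low-number ones for Cxcl2 and Il1b, whereas for Cxcl1 library 3 (159 CPM) lies above library 41 (123 CPM).

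The libraries also differed in depth and in macrophage and matrix markers, with ranges that overlapped between the sets. The sums of the neutrophil and monocyte list, given further below, did not overlap, but the gene Cxcr2 alone supplied a large part of the high-number sums. Vehicle libraries held 17712123 to 25502823 counts in the high-number set and 20304024 to 31248988 in the low-number set, with 13033 to 13442 and 11991 to 14333 genes detected. Over the 14 defining macrophage markers, which include Csf1r, Aif1 and C1qa, summed levels were 7471, 7399, 2617 and 1957 CPM in libraries 41, 51, 57 and 59, against 4735 to 9169.9 CPM in the low-number set. Libraries 57 and 59 thus held fewer macrophage transcripts than any low-number vehicle library, while 41 and 51 lay within the low-number range. In bulk RNA, fewer cells of a type and less RNA per cell cannot be told apart. The extracellular matrix and fibroblast list summed to 4115, 5783, 7029 and 12307 CPM in the high-number set, against 3129 to 10870.4 CPM in the low-number set, a range that overlaps. By counts of the Y-linked gene Ddx3y above 100, 1 of the 4 high-number and 3 of the 5 low-number vehicle libraries came from males. The part of macrophage content, matrix transcripts and sex in the differences below was not tested.

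Markers of microglia were present at unequal levels. The homeostatic microglia list, which includes Cx3cr1 and Trem2, summed to 2595 to 5528 CPM in the high-number set, against 5433 to 6693 CPM in the low-number set. Tmem119, a marker of microglia in the brain, stood at 0, 2.85, 5.84 and 7.64 CPM in the high-number libraries and at 9.66, 7.42, 5.39, 0 and 14.3 CPM in the low-number ones. C1qa, a subunit of the first complement component made by macrophages, stood at 789, 738, 291 and 220 CPM in the high-number libraries, against 649 to 952 CPM in the low-number ones. Tmem119 was at 0 in 1 library of each set and low in the others, while C1qa was abundant in both sets.

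**Figure D2:**
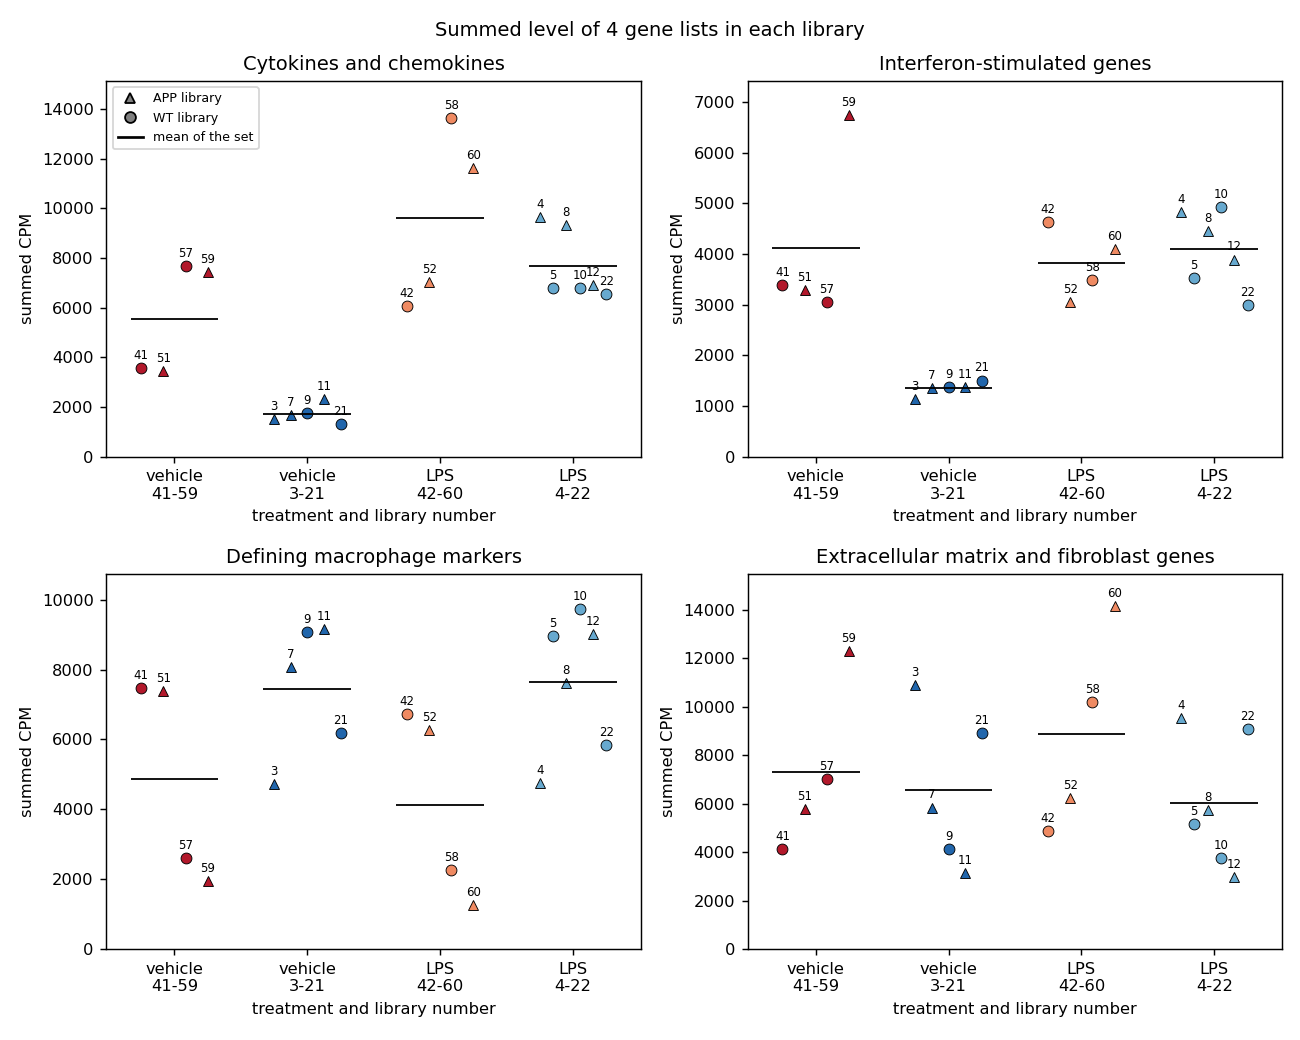
Summed level of 4 gene lists in each library (CPM), by treatment and library number. Points are libraries with their numbers (circles WT, triangles APP) and lines are the means of a set. Vehicle libraries 57 and 59 have the highest vehicle sums for cytokines and chemokines (7672 and 7433 CPM) and the lowest for macrophage markers (2617 and 1957 CPM), and LPS libraries 58 and 60 are also low for macrophage markers.

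Of 12868 genes that passed the filter on low counts in the vehicle libraries, 205 (1.59%) were higher and 122 (0.948%) were lower in the high-number set, counting a gene where the sets did not overlap and the log2 difference was at least 1. The median difference over all 12868 genes was 0.01. Without libraries 57 and 59, 186 of the 205 higher genes kept a difference of at least 1, as did 82 of the 122 lower genes. In both genotypes taken alone, 154 of the 205 higher genes and 81 of the 122 lower genes differed by at least 1. These retention counts cover genes that the rule had already picked in the same libraries. For the higher genes, counting required every high-number library to lie above every low-number one. A single library could still carry a difference past 1, as for H2-Q4, which fell from 1.20 to 0.87 without library 59. The highest value fell in library 59 for 94 genes, in 51 for 44, in 57 for 44 and in 41 for 23.

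The largest positive differences were in Il12b (5.30), Cxcl3 (4.70), Cxcl2 (4.50), Ifi44 (4.37), Serpinb2 (4.06), Dgka (3.84), Arg1 (3.59), Myo5c (3.45), Isg15 (3.43), Ripply3 (3.42), Il1a (3.37) and Or2h2 (3.32), all as log2 differences. Il12b, the p40 chain shared by interleukins 12 and 23, stood at 19.8, 17.4, 86.4 and 237 CPM in the high-number libraries, against 3.42 CPM in low-number library 9 and 0 in the other 4. All 4 high-number libraries lay above library 9. Serpinb2, an inhibitor of plasminogen activators made by stimulated macrophages, stood at 277, 1115, 339 and 311 CPM, against 7.23, 40.9, 61.2, 51.8 and 8.64 CPM in the low-number set. Library 51, not 57 or 59, was its highest, and without libraries 57 and 59 its difference was 4.45. Arg1, the arginase that turns arginine into ornithine and urea, stood at 38.2, 60.9, 16.7 and 99.3 CPM, against 3.06, 3.54, 2.55, 0 and 10.6 CPM in the low-number set, again with no overlap.

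Dgka, a kinase that removes the lipid messenger diacylglycerol, stood at 65.2, 146, 140 and 55.2 CPM in the high-number set and at 12.6, 8.17, 12.7, 0 and 5.82 CPM in the low-number set. Myo5c, an unconventional myosin, averaged 61.3 ± 40.6 CPM (SD, n = 4) against 5.69 ± 4.70 CPM (SD, n = 5). Ripply3, a transcriptional corepressor, averaged 79.9 ± 34.8 CPM (SD, n = 4) against 9.57 ± 9.16 CPM (SD, n = 5). These genes belong to no inflammatory list used here. Or2h2, an olfactory receptor gene, stood at 15.9, 5.53, 20.6 and 4.91 CPM, against 0.553 CPM in library 3 and 0 in the other low-number libraries. Other olfactory and vomeronasal receptor genes, such as Or4c3, Or51k1, Or52k2, Vmn1r229 and Vmn2r69, were also among the 205 higher genes. Their share over all genes was not computed, and the cause of their difference was not tested. Camp, Mcemp1, Nkain1, Oasl1 and Tenm4, 5 of the 205 higher genes, had 0 counts in every low-number library. Against a floor of 3 counts per library (0.128 CPM on average), the high-number mean was at least 57.0-fold higher for Tenm4 and 46.5-fold for Oasl1.

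The largest negative differences were in Exosc6 (-3.63), Aldh1a1 (-3.38), Hpgd (-3.27), Zdhhc14 (-3.08), Tmem141 (-2.57), Ptpro (-2.50), Rtn4rl1 (-2.37), Rgs2 (-2.27), Bpgm (-2.20), Cd72 (-2.15), Pxdc1 (-2.12) and Il10ra (-2.07). Exosc6, a subunit of the RNA exosome, had 0 counts in all 4 high-number libraries, against 23.01, 6.57, 4.29, 9.11 and 29.2 CPM in the low-number ones. Set against a floor of 3 counts per library (0.144 CPM on average), it was at least 100.3-fold lower. Aldh1a1, which makes retinoic acid, stood at 1.83, 0.503, 7.98 and 5.94 CPM, against 213, 35.01, 18.97, 13.5 and 58.1 CPM in the low-number set.

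Hpgd, the enzyme that inactivates prostaglandins, stood at 5.75, 3.41, 2.30 and 0.332 CPM in the high-number set and at 32.1, 21.8, 58.7, 53.0 and 14.4 CPM in the low-number set. Il10ra, the ligand-binding chain of the interleukin-10 receptor, stood at 15.6, 6.09, 5.20 and 3.03 CPM, against 16.0, 34.6, 21.1, 52.9 and 38.1 CPM. For Il10ra the sets were separated only narrowly, by libraries 41 and 3. Rgs2, which speeds the switching off of G proteins, averaged 45.2 ± 36.7 CPM (SD, n = 4) against 173 ± 31.2 CPM (SD, n = 5), and Cd72, an inhibitory receptor of B cells and macrophages, 25.4 ± 17.8 CPM against 102 ± 46.9 CPM. Both were lowest in libraries 57 and 59.

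**Figure D3:**
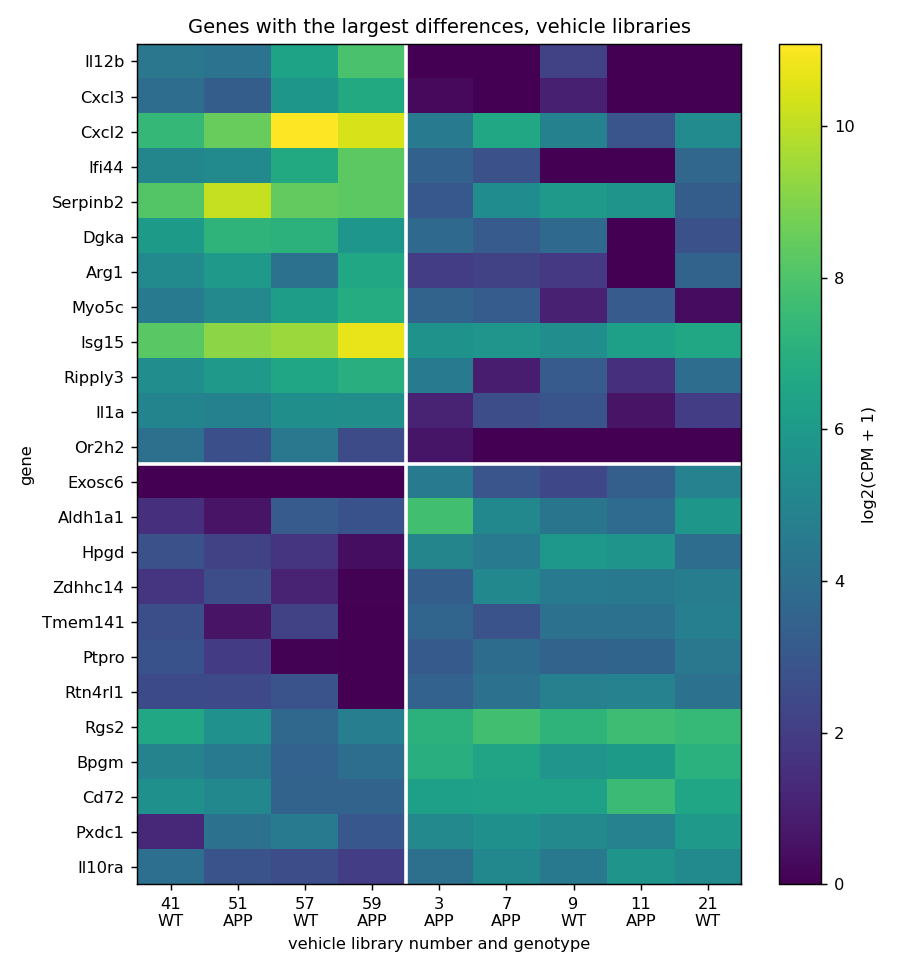
Level, as log2(CPM + 1), of the 12 genes with the largest positive and the 12 with the largest negative difference in the 9 vehicle libraries, with library number and genotype on the x axis. Genes above the white line were higher in libraries 41, 51, 57 and 59, left of the vertical line, than in libraries 3, 7, 9, 11 and 21, and genes below it were lower. Il12b was at 0 in 4 of the 5 low-number libraries and Exosc6 was at 0 in all 4 high-number libraries.

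Cytokine and chemokine genes known to be driven by NF-kB were mostly higher in the high-number set. Of 31 listed genes, 27 passed the filter and 26 of them differed by more than 0, with a median log2 difference of 1.27 (1.13 without libraries 57 and 59). The 8 counted as higher, with 0 counted as lower, were Il12b, Cxcl3, Cxcl2, Il1a, Il6, Ccl20, Il1b and Ccl2. Over all genes, 1.59% were counted as higher and 0.948% as lower. Il6, the inducer of the acute phase response, stood at 72.9, 89.2, 202 and 329 CPM, against 43.4, 20.2, 12.7, 4.13 and 37.8 CPM in the low-number set. Il1a, an alarmin cytokine held in the cell, was the most even, at 30.9, 28.1, 44.4 and 43.6 CPM, against 1.11, 5.20, 6.26, 0.503 and 3.10 CPM. Ccl2, the main monocyte chemokine, stood at 360, 426, 1434 and 1414 CPM in the high-number set, against 205, 208, 202, 197 and 215 CPM. The low-number libraries were almost equal for Ccl2, and 57 and 59 stood far above 41 and 51.

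Other cytokines overlapped between the sets. Tnf, the tumour necrosis factor gene, stood at 25.4, 26.7, 24.3 and 22.2 CPM in the high-number set and at 28.6, 19.1, 35.03, 51.6 and 16.4 CPM in the low-number set, with a log2 difference of -0.17. Ccl3 and Ccl4, chemokines of macrophages, overlapped between the sets with differences of 0.48 and 0.22. Ccl5 ranged from 190 to 748 CPM in the high-number set and from 10.3 to 526 CPM in the low-number set, with a difference of 2.55. Cxcl5, a further ligand of CXCR2, stood at 5.70, 19.2, 41.6 and 428 CPM in the high-number set, against 9.59 CPM in library 3 and 0 in the other 4 low-number libraries. Its difference was among the largest of the list at 4.63 (2.86 without 57 and 59), and it overlapped because library 3 lay above library 41. Kallisto may divide reads among the similar Cxcl1, Cxcl2 and Cxcl3 transcripts, so their separate levels are less certain than their sum.

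Inducible effectors of the LPS response showed the same tendency with fewer separated genes. Of 40 members that passed the filter, 33 differed by more than 0 and the median was 0.88. The 6 counted as higher, beside 1.59% of all genes, were Acod1, Clec4e, Slc7a11, Cd69, Mmp9 and Sod2. Acod1, which makes itaconate, stood at 105, 147, 166 and 127 CPM in the high-number set, against 30.6, 14.1, 25.7, 24.1 and 30.96 CPM in the low-number set. Clec4e, the Mincle receptor, stood at 199, 299, 499 and 343 CPM, against 27.9, 126, 66.999, 64.2 and 82.3 CPM. Slc7a11, the cystine transporter, stood at 441, 503, 706 and 762 CPM, against 180, 164, 179, 240 and 41.2 CPM. All 3 separated the sets, and for Acod1 the 4 high-number libraries were close to each other. Nos2, the inducible nitric oxide synthase, was at most 4.55 CPM in the high-number and 8.03 CPM in the low-number set.

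Genes that restrain the response were partly higher as well. The 26 NF-kB subunits, inhibitors and feedback brakes had a median of 0.55. Of these, 3 were counted as higher and 0 as lower, beside 1.59% and 0.948% of all genes. The 3 were Socs1 (2.03), which blocks cytokine receptor signalling, Zc3h12a (1.23), a nuclease that destroys cytokine messages, and Socs3 (1.18). Another 3 were separate between the sets with differences under 1, namely Nfkbia (0.99), Tnfaip3 (0.96) and Irak3 (0.74); over all genes, 3.31% were higher and 2.41% lower without overlap when no minimum difference was asked. Nfkbia, the IkB alpha inhibitor, stood at 569, 851, 783 and 768 CPM in the high-number set, against 291, 300, 347, 507 and 440 CPM. The 5 NF-kB subunit genes overlapped between the sets, with differences of 0.53 for Nfkb1, 0.52 for Nfkb2, 0.40 for Rel, -0.31 for Rela and -1.18 for Relb.

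Genes on the receptor side of the pathway did not separate the sets in the same way. Of 15 LPS sensing genes, 0 were counted in either direction, beside 1.59% of all genes higher and 0.948% lower. Of the 15, 5 differed by more than 0, and the median was -0.16. Tlr4 stood at 41.7, 25.1, 17.4 and 13.9 CPM in the high-number set, against 23.8, 46.8, 36.4, 43.1 and 30.5 CPM in the low-number set. Myd88 was the single member separate between the sets, and it was lower, at 26.2, 18.7, 18.1 and 28.3 CPM against 29.4, 35.2, 38.5, 35.04 and 45.1 CPM.

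Interferon-stimulated genes had a median of 1.40 over 41 members that passed the filter (1.21 without libraries 57 and 59), beside 0.01 over all genes. Within WT libraries their median was 0.98, where cytokines had 1.42, and within APP libraries it was 1.89, where cytokines had 1.93. Of the 41, 40 differed by more than 0, and 18 were counted as higher and 0 as lower, beside 1.59% and 0.948% of all genes. Isg15, a ubiquitin-like protein joined to others after interferon, stood at 305, 566, 686 and 1681 CPM in the high-number set, against 51.1, 53.1, 42.4, 75.3 and 99.6 CPM in the low-number set. Rsad2, the antiviral enzyme viperin, stood at 131, 121, 158 and 292 CPM, against 12.0, 14.9, 29.1, 30.3 and 36.9 CPM. Ifit1, which binds foreign RNA caps, stood at 40.8, 47.1, 56.7 and 150.5 CPM, against 10.2, 12.2, 11.6, 12.0 and 7.02 CPM. All 3 separated the sets by a wide margin, and library 59 was the highest for each.

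The other counted members were Ifi44, Oasl1, Iigp1, Gbp3, Ifit3, Gbp2, Usp18, Oasl2, Zbp1, Rtp4, Gbp7, Xaf1, Ifih1, Slfn5 and Trim30a. Rtp4, a chaperone for receptors, stood at 166, 124, 68.4 and 184 CPM in the high-number libraries, so that library 57 was its lowest. Cxcl10, a T cell chemokine of this list, overlapped between the sets: 14.6, 7.26, 68.0 and 212 CPM in the high-number libraries stood beside 11.3, 2.22, 0, 0 and 3.37 CPM in the low-number ones. Summed over the list, interferon-stimulated genes reached 3381, 3299.7, 3047 and 6746 CPM, against 1139.5 to 1503 CPM, and the narrow low-number range held libraries of both genotypes and both sexes. Ifit3 and Ifit3b, and the guanylate-binding proteins, have similar copies among which reads may be divided. Class I antigen presentation, a later target of interferon, was only slightly higher as a list. Its median was 0.20 over 22 members (0.31 without libraries 57 and 59), beside 0.01 over all genes. Of the 22, 16 differed by more than 0, and 1 member, H2-Q4, was counted as higher, beside 1.59% of all genes. H2-K1 and H2-D1 both differed by -0.53 with overlap.

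**Figure D4:**
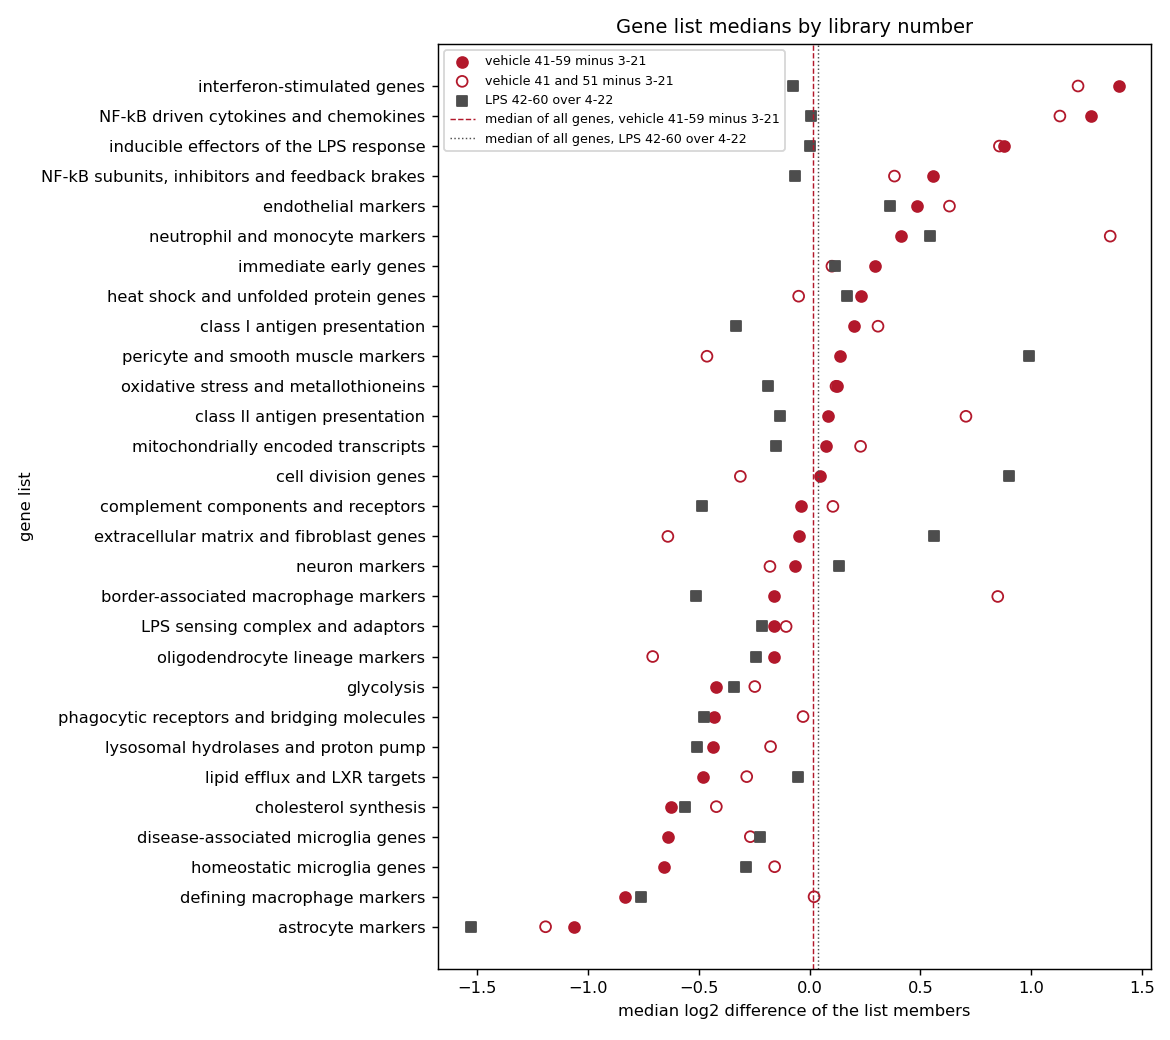
Median log2 difference of each gene list with at least 5 members past the filter. Filled circles are vehicle libraries 41 to 59 minus 3 to 21, open circles the same without 57 and 59, and grey squares the log2 change of LPS libraries 42 to 60 over 4 to 22, with vertical lines at the medians of all genes. Interferon-stimulated genes (1.40) and cytokines (1.27) lie far to the right in vehicle libraries but near 0 (-0.08 and 0.01) in LPS libraries, while lysosomal genes (-0.43 and -0.51) and cholesterol synthesis (-0.62 and -0.56) lie to the left in both.

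Promoters with the interferon letters were more frequent among the higher genes, and promoters with the NF-kB letters were not. Of the 205 higher genes, 155 matched a RefSeq promoter by symbol, and 20 of these (12.9%) held the interferon response motif, against 2 of 95 matched lower genes (2.11%), 395 of 10021 matched genes past the filter (3.94%) and 3.44% of all 32851 promoters in the table. For the NF-kB motif the shares were 23.9% (37 of 155) for higher genes, 28.4% (27 of 95) for lower genes, 29.9% for genes past the filter and 20.7% for all promoters. A gene of a set counted once if any of its promoters held the motif, whereas the shares of all promoters count each promoter singly. The shares of all promoters are thus on another unit than those of genes. A match describes letters in a window, not a bound site, and these shares were not tested.

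Genes of undisturbed microglia and of macrophages in general were mostly lower in the high-number set, and the difference was largely that of libraries 57 and 59. The 26 homeostatic genes had a median of -0.66, and -0.16 without 57 and 59. The 14 defining macrophage markers had a median of -0.83, 0 of them differed by more than 0, and without 57 and 59 the median was 0.02. Cx3cr1, the fractalkine receptor, stood at 112, 57.1, 12.9 and 21.1 CPM in the high-number set, against 108, 84.1, 153, 256 and 101 CPM in the low-number set. Trem2, a lipid receptor of microglia, stood at 137, 134, 51.5 and 18.6 CPM, against 184, 219, 198, 141 and 232 CPM. The sets overlapped for Cx3cr1 and were barely separate for Trem2, where library 41 lay just under library 11.

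C1qb, which forms C1q with C1qa and C1qc, stood at 243, 239, 76.8 and 54.4 CPM, against 323, 431, 505, 310 and 460 CPM, with no overlap. Gas6, a bridge between dying cells and the receptors Axl and Mertk, stood at 266, 197, 105 and 103 CPM, against 354, 332, 503, 536 and 513 CPM, and was also separate. For both, libraries 41 and 51 also lay below the low-number set. C1qa and C1qc did not separate the sets, and in libraries 41 and 51 C1qc stood at 726 and 660 CPM, within the low-number range of 602 to 1201 CPM. The disease-associated list, with Apoe and Spp1 among its genes, had a median of -0.64 (-0.27 without 57 and 59), and the phagocytic list had -0.43 (-0.03).

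Lysosomal hydrolases and proton pump subunits had a median of -0.43 over 41 genes, 5 of which differed by more than 0. Of the 41, 10 were lower without overlap, beside 2.41% of all genes, and 4 of these, Hexa, Glb1, Cd68 and Atp6v0a1, also differed by at least 1, beside 0.948% of all genes. Hexa, a subunit of the ganglioside-cleaving hexosaminidase, stood at 198, 159, 185 and 98.3 CPM in the high-number set, against 313, 562, 267, 281 and 345 CPM. Without libraries 57 and 59 the list median was -0.18 and 0 members were counted as lower, while the count over all genes was 345, and Hexa differed by -0.94.

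Cholesterol synthesis genes, which SREBP-2 drives, had a median of -0.62 over 23 genes, 3 of which differed by more than 0 (median -0.42 without 57 and 59). Of the 23, 6 were lower without overlap, beside 2.41% of all genes. Of these, Idi1 and Lss also differed by at least 1, beside 0.948% of all genes. Idi1, the isomerase of isopentenyl diphosphate, stood at 55.7, 44.1, 32.4 and 41.0 CPM, against 119.5, 122, 90.4, 86.1 and 78.7 CPM in the low-number set. Hmgcs1, an early enzyme of the pathway, stood at 72.2, 76.8, 67.7 and 68.1 CPM, against 233, 138, 136, 87.3 and 121 CPM. For Hmgcs1 the 4 high-number libraries were close to each other. Lss, which closes the sterol rings, stood at 13.2, 7.09, 5.84 and 3.99 CPM, against 24.1, 17.2, 17.5, 14.2 and 15.9 CPM, and was lowest in libraries 57 and 59.

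Among markers of other cells, the neutrophil and monocyte list summed to 180.2, 261, 129.98 and 140.1 CPM in the high-number set, against 67.3 to 107 CPM in the low-number set. The 2 most abundant members were Cxcr2, the receptor of Cxcl1, Cxcl2 and Cxcl3, at 56.1, 132, 72.7 and 93.9 CPM against 18.1, 18.6, 27.4, 7.20 and 30.03 CPM, and S100a8, which overlapped. Cxcr2 alone supplied a large part of the high-number sums, so they do not describe the list evenly. Of the 5 members past the filter, 3 differed by more than 0, and the median was 0.41. Cxcr2 and Camp were counted as higher, beside 1.59% of all genes. Without libraries 57 and 59, 3 were counted, beside 493 of all 12868 genes, and the median was 1.36. Ly6c2 was at 0 in every vehicle library, and Ltf and Mpo were at or below 1.99 CPM. Lymphocyte markers summed to at most 4.66 CPM in the high-number and 4.45 CPM in the low-number set. The astrocyte list had a median of -1.06 over 9 genes with no separate member, and Gfap was at 0 in all high-number libraries and at most 9.14 CPM in the low-number ones. The part of these cells in the differences was not tested.

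Stress and division lists showed little by their medians, although single libraries stood apart. The heat shock and unfolded protein list had a median of 0.23 and the immediate early list 0.29, with no member counted in either. Heat shock sums were 9964 to 10655 CPM in libraries 57 and 59, against 7299 to 9281 CPM in the low-number set. Cell division genes had a median of 0.05. Without libraries 57 and 59 it was -0.31, with 3 members counted as lower, beside 345 of all 12868 genes. The cell division sum was highest in library 59, at 861 CPM against 321 to 530 CPM in the low-number set. Of 20 oxidative stress genes and metallothioneins, 3 were counted as higher, beside 1.59% of all genes. They were Slc7a11, Sod2 and Mt2, a metal-binding protein at 1279, 1408, 3630 and 4261 CPM against 934, 1045, 448, 334 and 633 CPM. Mitochondrially encoded transcripts had a median of 0.08.

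Set against libraries that received LPS, the high-number vehicle libraries lay part of the way up by their means, but they differed among themselves. Their mean exceeded the mean of the low-number LPS libraries for 11 of 27 cytokine genes, 17 of 41 interferon-stimulated genes and 12 of 40 effectors, whereas the low-number vehicle mean lay below it for 27 of 27, 40 of 41 and 38 of 40. Cxcl2 averaged 1019.5 ± 932 CPM in the high-number vehicle libraries (SD, n = 4), against 633 ± 296 CPM in the low-number LPS libraries (SD, n = 6). Il1b averaged 79.1 ± 35.7 CPM in the high-number vehicle libraries, against 339 ± 197 CPM in the low-number LPS libraries. For Cxcl2 the vehicle range reached above the LPS range, and for Il1b all vehicle libraries stayed below all LPS libraries. Summed cytokines in libraries 57 and 59 (7672 and 7433 CPM) lay within the low-number LPS range of 6541 to 9655 CPM. Libraries 41 and 51, at 3578 and 3435 CPM, lay below it. For summed interferon-stimulated genes, library 59 (6746 CPM) lay above the low-number LPS range of 2987 to 4931 CPM, and 41, 51 and 57 lay within it. These levels were compared without a test.

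In the LPS libraries the division by number gave 0 called genes (0% of 12812 tested) at an adjusted p under 0.05 in edgeR's quasi-likelihood test with genotype as a covariate and Benjamini-Hochberg adjustment. At an unadjusted p under 0.05, 488 genes (3.81%) were higher and 599 (4.68%) lower in the high-number LPS libraries. DESeq2 on the same counts called 84 higher and 141 lower genes, and edgeR without the filter on low counts called 42 and 32, so the count of 0 depends on the tool and the filter. A test of whether the division differed between genotypes called 0 genes, with 204 at an unadjusted p under 0.05.

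Cxcl2 stood at 571, 1052, 4078 and 2477 CPM in LPS libraries 42, 52, 58 and 60, against 405 to 1195 CPM (median 494) in the low-number LPS libraries. Its log2 difference was 1.69 (SE 0.47), with an adjusted p of 0.297 in edgeR's quasi-likelihood test, over alternatives from 0.00631 to 1.00. Without libraries 58 and 60 the difference was 0.31, and without library 58 alone 0.88, so it rested on that pair. Il1b differed by 0.22 (SE 0.32, adjusted p 0.935 in edgeR), at 388, 265, 428 and 433 CPM against 194 to 729 CPM. Cxcl1 differed by 0.44 (SE 0.56, adjusted p 0.917 in edgeR), and by -0.22 without library 58 and -0.45 without 58 and 60. Neither gene separated the LPS sets.

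The 5 genes with the smallest p were Ckb, Bpgm, Itgal, Ruvbl1 and Abcb1b, each with an adjusted p of 0.260 in edgeR's quasi-likelihood test. Ckb, the brain form of creatine kinase, stood at 51.9, 25.1, 26.5 and 17.97 CPM in the high-number LPS libraries, against 71.9 to 126 CPM (median 91.7) in the low-number ones, a log2 difference of -1.69 (SE 0.30). In vehicle libraries it stood at 86.1, 30.1, 53.4 and 37.1 CPM, against 219, 185, 154, 110 and 239 CPM. Bpgm, which makes 2,3-bisphosphoglycerate, stood at 29.3, 22.0, 14.2 and 12.6 CPM in the high-number LPS libraries, against 52.4 to 184 CPM (median 79.7), a log2 difference of -2.21 (SE 0.39). Its vehicle values were nearly the same, at 29.7, 23.2, 10.3 and 15.1 CPM against 121, 88.5, 54.3, 64.0 and 133 CPM. Both genes thus separated the libraries by number with either treatment.

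Itgal, the alpha chain of the integrin LFA-1, differed by -1.77 (SE 0.32) in LPS libraries but by -0.16 with overlap in vehicle libraries. Ruvbl1, an ATPase of chromatin remodelling complexes, stood at 73.5, 107, 120 and 109 CPM in the high-number LPS libraries, against 35.8 to 54.3 CPM (median 44.2), a log2 difference of 1.21 (SE 0.22). Abcb1b, a drug efflux pump, differed by 1.28 (SE 0.25). In vehicle libraries Ruvbl1 and Abcb1b differed by 0.73 and 0.93 without overlap, too little to be counted at the minimum of 1. Serpinb2 stood at 523, 1421, 818 and 339 CPM in the high-number LPS libraries, against 143 to 383 CPM (median 215), a log2 difference of 1.75 (SE 0.35) with the same adjusted p of 0.260 in edgeR.

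**Figure D5:**
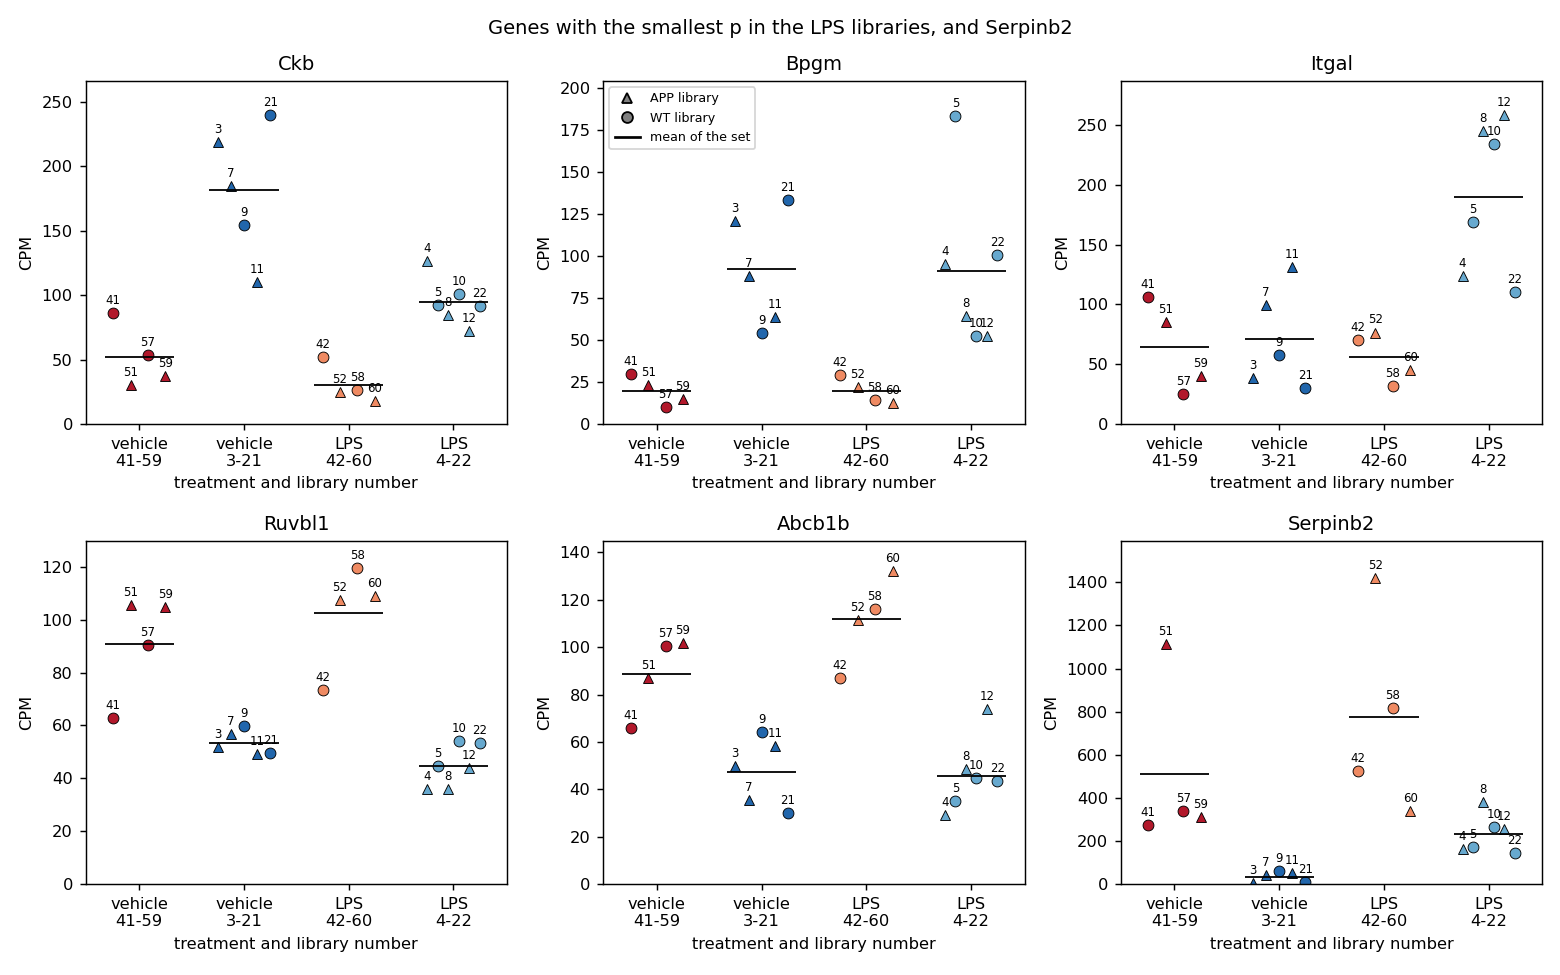
Level (CPM) in each library of the 5 genes with the smallest p between LPS libraries 42 to 60 and 4 to 22, and of Serpinb2. Points are libraries with their numbers (circles WT, triangles APP) and lines are the means of a set. Ckb and Bpgm are low in the high-number libraries with vehicle and with LPS, whereas Itgal separates LPS libraries alone.

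The genes that separated the vehicle libraries tended to differ the same way in the LPS libraries, although edgeR's quasi-likelihood test with the filter called 0 of them. Other fits called some, with the smallest adjusted p over alternatives at 0.000188 for Bpgm and 0.000862 for Serpinb2, both in DESeq2, and 0.0127 for Aldh1a1 in edgeR without the filter, and the largest at 1.00, 0.788 and 1.00. Of the 205 higher genes, 200 were tested in LPS libraries, with a median log2 change of 0.61, and 157 (78.5%) were above 0 beside 52.5% of all genes. At an unadjusted p under 0.05 in edgeR, 48 (24%) were higher and 1 was lower, beside 3.81% higher over all genes. Of the 122 lower genes, 120 were tested, with a median of -0.66; 102 (85%) were below 0 and 36 (30%) lower at that level, with 0 higher, beside 4.68% lower over all genes. Without libraries 58 and 60 the median changes were 0.43 for the higher and -0.58 for the lower genes, with 71.1% above 0 and 74.6% below 0, beside 48.9% of all genes above 0.

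The LPS libraries may not be separate from the vehicle libraries. Each vehicle library and the LPS library with the next number were of the same sex by Ddx3y, and LPS libraries 58 and 60, like 57 and 59, had low summed macrophage markers (2271 and 1278 CPM). The labels do not say whether such neighbours came from 1 culture, so the shared direction cannot be told apart from a property of the cultures themselves.

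By their medians, the inflammatory lists did not carry over. Cytokines had a median change of 0.01 in LPS libraries with 14 of 28 above 0, effectors 0.00 with 20 of 39, and interferon-stimulated genes -0.08 with 16 of 43, beside 0.04 over all genes. Single members did differ at an unadjusted p under 0.05 in edgeR. Of cytokines 4 were higher and 2 lower, of effectors 6 and 3, and of interferon-stimulated genes 1 and 3. Over all genes 3.81% were higher and 4.68% lower. Without libraries 58 and 60, medians were -0.11 for cytokines, 0.07 for effectors and -0.29 for interferon-stimulated genes, beside -0.02 over all genes. Below 0 were 18 of 28 cytokines, 19 of 40 effectors and 33 of 43 interferon-stimulated genes, beside 51.1% of all genes. Counts at that unadjusted p, without the same pair, were 0 and 3 for cytokines, 3 and 2 for effectors, and 0 and 2 for interferon-stimulated genes. Over all 13663 genes tested there, 289 were higher and 292 lower. Several lists that were lower in vehicle libraries did carry over by their medians. Cholesterol synthesis had a median of -0.56 with 22 of 23 genes below 0, and -0.45 with 19 of 23 below 0 without libraries 58 and 60. Idi1 differed by -1.37 (SE 0.50) and Lss by -1.39 (SE 0.54), with adjusted p of 0.431 and 0.464 in edgeR. Lysosomal genes had a median of -0.51 with 37 of 41 below 0, and 19 were lower at an unadjusted p under 0.05 in edgeR, against 4 of 41 without libraries 58 and 60, where the median was -0.23. Defining macrophage markers had a median of -0.76, and -0.12 without that pair. Homeostatic, disease-associated and phagocytic genes had medians of -0.29, -0.23 and -0.48, and of 0.15, 0.03 and 0.11 without that pair, so their direction turned. Lipid efflux genes, at -0.48 in vehicle libraries, had -0.05 in LPS libraries with 9 of 18 above 0. Matrix genes had a median of 0.56 and cell division genes 0.90, and without libraries 58 and 60 these were -0.07 and -0.32, so their direction turned.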

How the data were processed

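The submitters' processing notes name FastQC, Trimmomatic, kallisto and DESeq2. For their versions, the build, the annotation and the handling of molecular identifiers: not given in the sources used here. The authors deposited estimated counts of reads by gene, which were whole numbers, for 16941 genes in 19 libraries of 13065257 to 31248988 counts; the smallest gene total was 10.

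Groups came from the labels. WT LPS replicate 1, labelled 5 but filed as 6, is in the low-number set either way. No 2 libraries of the same genotype and treatment agreed within sampling noise (chi-square per degree of freedom at least 85.9 over 36 pairs); pairs across groups were not compared in this way.

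CPM were computed with TMM factors over 19 libraries (edgeR 4.0.16, limma 3.58.1, R 4.3.3). Vehicle sets were compared as the difference of mean log2(CPM + 1) among 12868 genes passing filterByExpr (4073 did not), and a gene was counted where sets did not overlap and the difference was at least 1. LPS sets were compared with edgeR's quasi-likelihood test (12812 genes, genotype as covariate, Benjamini-Hochberg adjustment, calls at 0.05; common dispersion 0.852). DESeq2 1.42.0 was an alternative. The code was tested on simulated data. Promoters came from RefSeq (GRCm38.p6).

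The members, the 30 gene lists and the rules were chosen with earlier results of these data known. Named genes are Cxcl2, Il1b and Cxcl1, the 12 largest separate differences each way (mean of 10 CPM or more in the higher set), up to 4 members per list, and the 5 smallest p in LPS libraries; other genes were named after their values were seen. Floors of 3 counts cover counting error only.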

Additional observations from a re-analysis of the deposited data

Results flagged for a closer look

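The search for outlying libraries covered 30 core genes. They were Cxcl2, Il1b and Cxcl1, the largest vehicle differences each way and the smallest p in LPS libraries. Genes named only from the lists, such as Cxcl5, were not searched. Of 120 groups of 4 to 6 libraries examined gene by gene among the core genes, 9 held a library far from the rest of its set, beside about 1 in 20 groups that chance would give. In high-number vehicle libraries, Serpinb2 was far higher in library 51 (1115 CPM) than in the others, and Rtn4rl1 was at 0 in library 59. In low-number vehicle libraries, Il12b was detected only in library 9 (3.42 CPM) and Or2h2 only in library 3 (0.553 CPM), Dgka was at 0 in library 11, and Cd72 was highest there (185 CPM). In high-number LPS libraries, Exosc6 stood at 10.8 CPM in library 42, apart from 3 libraries near 0. In low-number LPS libraries, Dgka was at 0 in library 12 and Arg1 stood at 150.0 CPM in library 22. Libraries 11 and 12, both at 0 for Dgka, carry neighbouring numbers.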

How the results depend on the processing

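The counts of 205 higher and 122 lower genes in vehicle libraries stayed within 1.5 times under DESeq2 size factors, plain totals, a pseudocount of 0.25 CPM and no filter. They became 426 and 310 with no minimum difference, and, where fewer libraries make non-overlap easier, 1057 and 853 in WT libraries alone, 759 and 641 in APP libraries alone, and 493 and 345 without libraries 57 and 59. Leaving out 1 library at a time gave 261 to 377 higher and 159 to 285 lower genes, both highest without library 41. The higher count passed 1.5 times the main one also without library 3 (324), and the lower count without libraries 7 (190), 9 (200), 11 (226) and 21 (186). Over the same removals the differences ran from 3.92 to 5.15 for Cxcl2, 2.14 to 2.64 for Il1b and 2.74 to 3.72 for Cxcl1. In LPS libraries edgeR called 0 genes in every removal and under RLE factors, a robust fit, no genotype term, all 19 libraries, or 58 and 60 left out. DESeq2 called 84 higher and 141 lower genes, with no adjusted p for 6963, and edgeR without the filter 42 and 32; the cause was not tested. Without the filter Cxcl2 passed the threshold, with a change of 1.71 and an adjusted p of 0.00631 in edgeR. LPS changes ran from 0.88 to 2.001 for Cxcl2, 0.09 to 0.53 for Il1b and -0.22 to 0.94 for Cxcl1 over single removals. No paired analysis was possible because the number sets within a genotype and treatment share no replicate numbers. Precision is limited by 4 to 6 libraries a set.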
